A study of Macaca mulatta with 48 samples.

Results

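Marker-positive cells of the adult and aged rhesus monkey testis were selected on 6 genes proposed as markers of mature Sertoli cells, namely CST9L, DEFB119, FATE1, HOPX, PRND and BMT2. A cell was taken when at least 2 of the 6 genes each had a UMI (a unique molecular identifier, the tag that counts 1 captured RNA molecule), when the spermatid genes PRM1, PRM2 and TNP1 together made up under 5% of its UMIs, and when the mitotic kinase gene AURKA had none. Of 73232 adult and aged cells 19012 were taken (26%), out of 112150 cells in the whole series. In all, 29188 cells had at least 2 markers, of which 4971 were left out by the spermatid limit and 5205 by AURKA. The levels of these 10 genes chose the cells and are therefore described without a test.

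Sertoli cells are the somatic cells that line the seminiferous tubule. They join each other by tight junctions that form the blood-testis barrier, feed and support the germ cells, engulf the residual bodies that spermatids shed, and answer to follicle-stimulating hormone through FSHR. Immature Sertoli cells secrete much anti-Müllerian hormone (AMH), which falls as they mature at puberty.

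The libraries were single-cell droplet libraries from testes of 6 rhesus monkeys, with 2 prepubertal animals of 1 year, 2 adults of 6 years and 2 aged animals of 22 years. Per the methods of the study, the testes of an animal were collected in different seasons, 1 outside breeding (August) and 1 during it (December). The study states that compensation after removal of 1 testis remains possible. Season and the order of removal cannot be told apart here. The sample sheet ties the libraries to age group and season, and a shared sample number was taken as the same animal, so that every age and season holds 2 libraries from 2 animals, and it calls the youngest group puberty where the labels have prepuberty. Total UMIs over all barcodes of a library ranged from 23072680 to 43405583, except for adult animal 2 in the breeding season, with 959819. There 117 of 333 barcodes were kept as cells, with 165380 UMIs. Only 4 marker-positive cells came from that library, so it was left out of the season tests, and in the sums per animal these 4 joined the 5603 cells of the other testis. That library shared 46 of its 117 cell barcodes (39.3%) with aged breeding 1, none of them marker-positive in both libraries, so values of its cells are uncertain. Other pairs of the 8 adult and aged libraries shared at most 41 barcodes, and over the 28 pairs 37 marker-positive barcodes were shared. Libraries are named below by age, season and animal, as in "adult non-breeding 1".

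The word Sertoli in the label "mature Sertoli" was checked against 24 Sertoli genes that the rule did not use. Among them were SOX9, WT1, GATA4, CLU, AMH, INHA, FSHR, DHH and CLDN11. AMH and INHA also mark immature Sertoli cells, so this list does not check the word mature. The summed level of the 24 genes followed the number of markers a cell carried. In adult non-breeding 1 the 24 genes took 16 of every 10000 UMIs in cells with 2 markers and 138 in cells with all 6. The corresponding levels were 10.0 and 159 in adult non-breeding 2, 7.95 and 232 in adult breeding 1, 19.3 and 160 in aged non-breeding 1, 12.9 and 199 in aged non-breeding 2, and 5.60 and 181 in aged breeding 1. Cells with 1 marker, just outside the rule, held 17.0, 8.36, 5.13, 16.8, 10.0 and 5.12 per 10000 in the same 6 libraries. Cells with 2 markers were therefore close to cells with 1 in these genes, and the steep rise came at 4 or more markers, later in some libraries. In aged non-breeding 1 cells with 4 markers held 24.2 per 10000 and cells with 5 held 57.7. In adult non-breeding 2 these levels were 35.8 and 116.

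**Figure D1:**
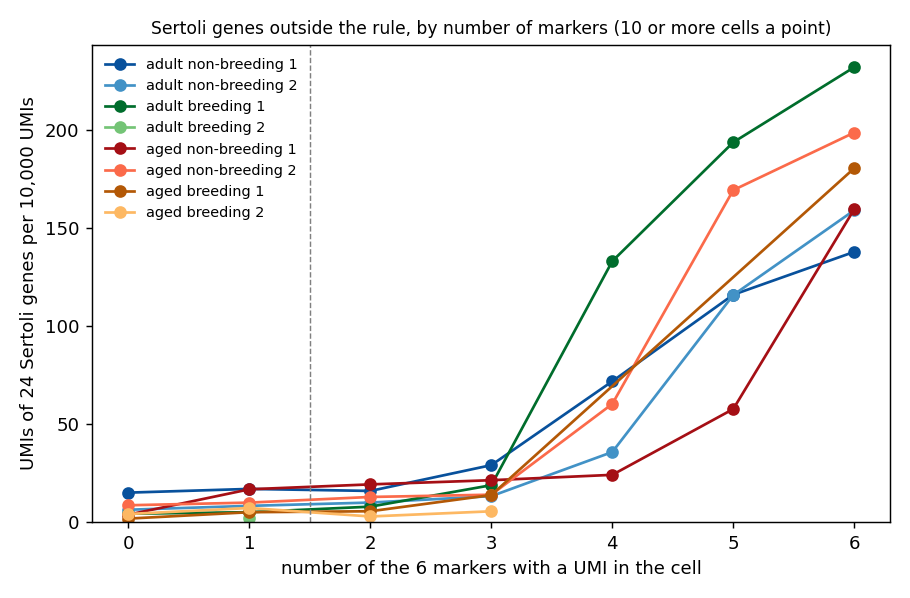
Summed UMIs of 24 Sertoli genes outside the rule per 10000 UMIs (y axis) by the number of the 6 markers with a UMI in the cell (x axis), 1 line per library and points of at least 10 cells, with the limit of the rule dashed. In 6 libraries the line stays low up to 3 markers and reaches 138 to 232 per 10000 at 6 markers.

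Cells with exactly 2 markers made up 7007 of the 19012 (36.9%), against 2789 (14.7%) with all 6. Cells that passed the other limits with 1 marker numbered 11928. Among the cells with exactly 2 markers, 38.4% had CST9L with BMT2, 28.0% FATE1 with BMT2 and 15.4% HOPX with BMT2. At the spermatid limit 848 cells lay inside with 4 to 5% of their UMIs in PRM1, PRM2 and TNP1, and 453 lay outside with 5 to 6%. Scrublet scores marked 1430 of the 19012 as likely doublets (7.52%).

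Cells that should lack the markers carried them too. Spermatids, taken as cells with at least 5% of UMIs in PRM1, PRM2 and TNP1, had 2 or more markers in 84.0% of cases in adult non-breeding 1, against 92.9% of all other cells there. In adult non-breeding 2 the shares were 81.0% and 84.4%, and in aged non-breeding 1 they were 50.6% and 48.5%. The shares were lower in adult breeding 1 (14.9% and 29.3%), aged non-breeding 2 (8.04% and 16.8%), aged breeding 1 (6.96% and 10.7%) and aged breeding 2 (7.74% and 15.5%). Median depth was 3401 UMIs in the spermatids and 3268 in all cells of adult non-breeding 1, and 2146 and 1777 in aged non-breeding 1. T cells, taken by CD3D, CD3E, CD3G and CD2, had at least 2 markers in 23 of 24 cells (95.8%) of adult non-breeding 1, in 16 of 18 (88.9%) of adult non-breeding 2 and in 201 of 348 (57.8%) of aged non-breeding 1. In aged non-breeding 1 the share was no lower in spermatids and T cells than in the other cells, and in both adult non-breeding libraries the shares lay close. The marker-positive cells nevertheless held more of the 24 Sertoli genes than the other cells, at 23.6 against 8.94 per 10000 UMIs in aged non-breeding 1, 97.9 against 27.8 in adult non-breeding 1 and 47.0 against 11.3 in adult non-breeding 2. The other cells include spermatids and cells with AURKA, which the rule removed. Cells with 1 marker that passed those limits held 16.8, 17.0 and 8.36 of these genes per 10000 UMIs in the same order. The source of these UMIs was not tested. The data go against taking every such cell as a Sertoli cell, and the cells are called marker-positive.

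Marker-positive cells made up very different parts of the libraries. They were 7278 of 9239 cells in adult non-breeding 1 (78.8%, exact 95% binomial interval 77.9 to 79.6) and 5603 of 10298 in adult non-breeding 2 (54.4%, 53.4 to 55.4). In adult breeding 1 they were 880 of 9383 (9.38%, 8.80 to 9.99) and in adult breeding 2 4 of 117 (3.42%, 0.939 to 8.52). The aged libraries gave 3713 of 12869 in non-breeding 1 (28.9%, 28.1 to 29.6), 847 of 13128 in non-breeding 2 (6.45%, 6.04 to 6.89), 318 of 7411 in breeding 1 (4.29%, 3.84 to 4.78) and 369 of 10787 in breeding 2 (3.42%, 3.09 to 3.78). The non-breeding testis held the larger share in all 4 animals, which in adult animal 2 rests on the small library that shares barcodes, and both adult non-breeding libraries together gave 12881 of the 19012 cells. The intervals cover counting error only.

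**Figure D2:**
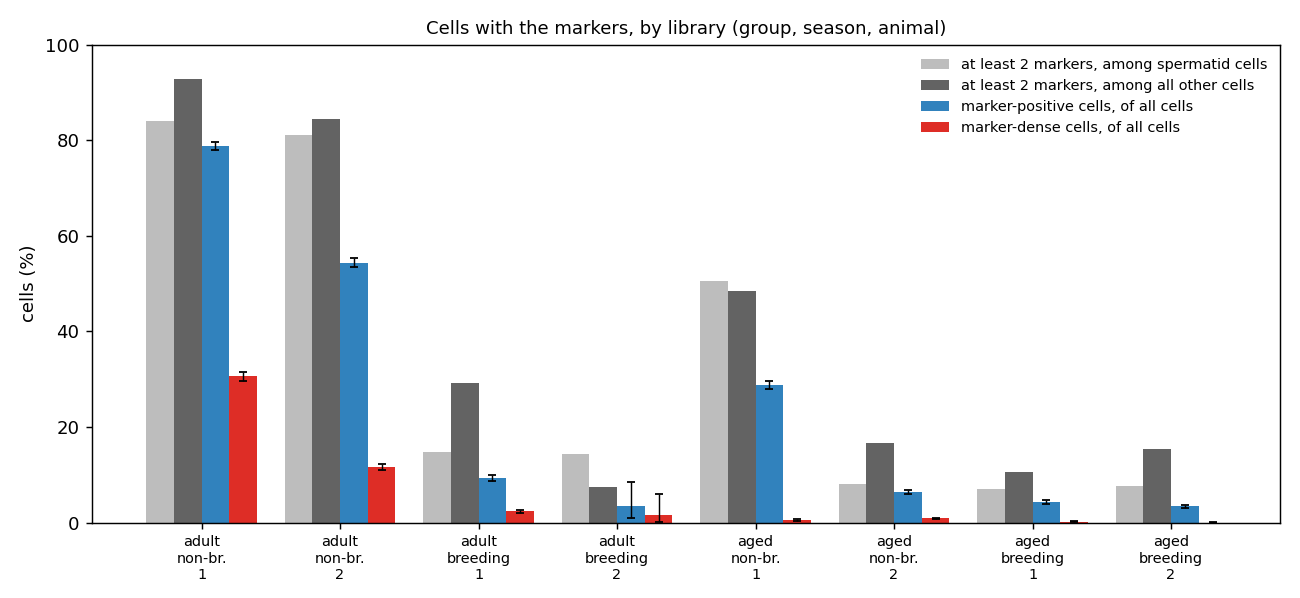
Cells of each adult and aged library in percent (y axis): grey bars give cells with at least 2 markers among spermatids and among all other cells, blue bars marker-positive cells and red bars marker-dense cells (defined below by the level of 5 markers) of all cells, with exact 95% binomial intervals. Marker-positive cells reach 78.8% and 54.4% in the adult non-breeding libraries and at most 28.9% elsewhere, and the grey bars of spermatids and other cells lie close in these 2 libraries and in aged non-breeding 1.

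Over all cells of an animal the share was 43.8% and 53.8% in the adults and 19.9% and 5.08% in the aged animals. The value of adult animal 2 is almost wholly that of its non-breeding library, with 10298 cells against 117, so the seasons are mixed unequally between the ages. The difference, aged minus adult, was -36.3 percentage points (48.8% ± 7.09 against 12.5% ± 10.5, SD, n = 2 animals each), and the exact two-sided permutation test gave p = 0.333, the smallest that 2 animals against 2 can give. With both testes weighted equally, a setting added after the data were seen, the shares were 44.1% and 28.9% against 16.6% and 4.94%, a difference of -25.7 points, and in the non-breeding libraries alone the difference was -48.9 points (exact permutation p = 0.333 in both). After each cell was thinned to 1000 UMIs, leaving out shallower cells (73 to 1585 in an adult and 1117 to 1574 in an aged library), the shares were 38.8% and 37.5% against 15.4% and 2.02%. With at least 3 markers they were 35.8% and 36.1% against 6.33% and 1.25%, and with the spermatid limit at 1% of UMIs 39.9% and 37.8% against 1.54% and 2.59%. The adults lay above the aged animals under each of these settings.

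Each marker was compared between marker-positive and other cells of a library as counts per 1000000 UMIs of the cells (CPM). CST9L, a cystatin-family gene, stood at 2349, 1268 and 1388 CPM in the marker-positive cells of adult non-breeding 1, adult non-breeding 2 and adult breeding 1, and at 667, 311 and 77.2 CPM in the other cells. In aged non-breeding 1, non-breeding 2, breeding 1 and breeding 2 it stood at 416, 858, 645 and 231 CPM, against 67.8, 43.5, 15.9 and 40.0 CPM. FATE1, a testis-expressed gene at chrX:147707613-147714906 (plus strand, Mmul_10, RefSeq), ran from 699 to 1830 CPM in the same 3 adult libraries and from 141 to 472 CPM in the 4 aged ones. The aged libraries were lower than these adult libraries in both genes, as a description of cells chosen on them, and they also held fewer cells of the marker-dense set described below (0.542% to 13.9% of the marker-positive cells, against 21.6% to 38.9%).

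DEFB119, a beta-defensin gene at chr10:66631622-66644823 (minus strand), had 483, 190 and 271 CPM in the 3 adult libraries and 94.2, 118, 182 and 81.0 CPM in the aged ones. PRND, which encodes the prion-like protein doppel and lies at chr10:61756958-61760708 (minus strand), had 207, 103 and 173 CPM and then 59.4, 83.2, 99.1 and 13.4 CPM. HOPX, an atypical homeodomain gene at chr5:76928015-76962762 (plus strand), had 342, 230 and 267 CPM and then 206, 227, 161 and 97.9 CPM. In these 3 genes too the aged values lay below the adult ones, each by a narrow margin.

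BMT2, the sixth marker, encodes a protein that binds S-adenosylmethionine and acts upstream of mTORC1, and lies at chr3:139091728-139218747 (minus strand). Its level differed between the animals of each age. Marker-positive cells held 2686 and 1440 CPM in the libraries of adult animal 1 and 7181 CPM in adult non-breeding 2. They held 7371 and 5492 CPM in the libraries of aged animal 1 and 869 and 636 CPM in those of aged animal 2. In the other cells BMT2 stood at 1076 and 231 CPM in adult animal 1, 2869 and 3907 in adult animal 2, 4187 and 1294 in aged animal 1, and 221 and 276 in aged animal 2. With at least 1 BMT2 UMI in 99.0% of the other cells of aged non-breeding 1, the rule there came down to any further marker.

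**Figure D3:**
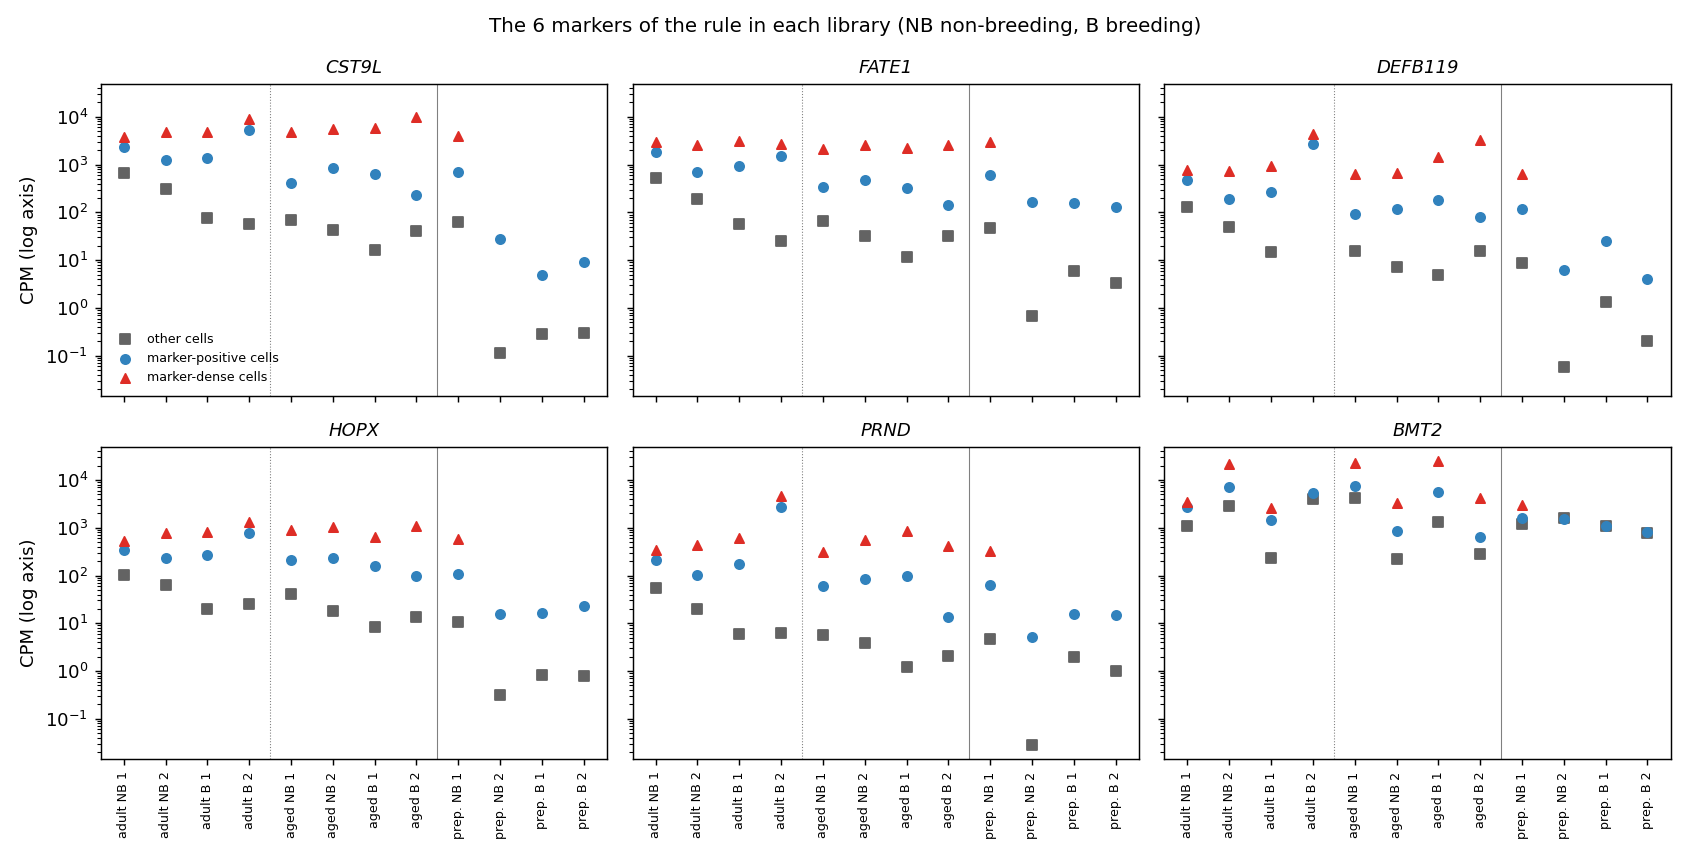
Level of the 6 markers in CPM (log10 y axis) in marker-dense (triangles), marker-positive (circles) and other cells (squares) of the 12 libraries (x axis). The genes chose the cells, so the levels are a description. BMT2 is high in the other cells of adult animal 2 and aged animal 1, and the other cells of adult breeding 2 have 0 CPM of DEFB119, which is not drawn.

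A limit that left BMT2 out separated a denser set. Cells in which CST9L, DEFB119, FATE1, HOPX and PRND together took at least 0.6% of UMIs are called marker-dense; the limit was set after the values were seen, so this set is only described. It held 4475 cells (23.5% of the marker-positive cells), 4265 from adults and 210 from aged animals. By library there were 2830 in adult non-breeding 1 (30.6% of its cells), 1209 in adult non-breeding 2 (11.7%), 224 in adult breeding 1 (2.39%) and 2 in adult breeding 2 (1.71%). The aged libraries gave 74 in non-breeding 1 (0.575%), 118 in non-breeding 2 (0.899%), 16 in breeding 1 (0.216%) and 2 in breeding 2 (0.0185%). There were 1040 marker-positive cells at 0.5 to 0.6% of UMIs and 949 at 0.6 to 0.7%, which is 10.5% of the marker-positive cells near the limit. Of the spermatids 0.0329% to 5.06% reached it in the 7 deeper libraries. Of the T cells 4 of 24 (16.7%) reached it in adult non-breeding 1, and 0 of 18 in adult non-breeding 2 and 0 of 348 in aged non-breeding 1, so the limit did not keep out all cells of another type in the library that gave most of the set.

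In the marker-dense cells the 24 Sertoli genes outside the rule took 147, 178 and 235 per 10000 UMIs in adult non-breeding 1, adult non-breeding 2 and adult breeding 1. They took 143, 198 and 192 in aged non-breeding 1, non-breeding 2 and breeding 1, so the adult and aged ranges overlapped. The other cells of the same libraries held 27.8, 11.3 and 4.8, and 8.94, 5.01 and 2.41. Marker-positive cells that were not marker-dense held 58.8, 20.04 and 17.9, and 20.7, 15.4 and 9.23. In aged breeding 2, all marker-positive cells together held 5.07 against 3.28 in the other cells, and only its 2 marker-dense cells stood apart, at 280. PTGDS weighs heavily in the sums of the marker-dense cells, most in the aged ones. It alone took 1119 of 176231 UMIs in aged non-breeding 1, 2907 of 289526 in non-breeding 2 and 450 of 61389 in breeding 1. In adult non-breeding 1, non-breeding 2 and breeding 1 it took 33837 of 12621989, 19591 of 3179065 and 4039 of 663924.

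Genes of the Sertoli programme were present in the marker-dense cells of every library with over 10 of them. INHA, the inhibin alpha subunit, had 1307, 1436 and 1969 CPM in the adult libraries and 880, 1233 and 1320 CPM in the aged ones, in the order just used. CLDN11, the claudin of the Sertoli tight junction, had 752, 736 and 717 CPM and then 533, 736 and 945 CPM. CLU, the secreted chaperone clusterin, had 3352, 4022 and 7614 CPM and then 2883, 3696 and 5604 CPM. In all 3 genes the adult and aged ranges overlapped.

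FSHR had 345, 296 and 349 CPM in the adult and 244, 155 and 261 CPM in the aged marker-dense cells, the latter on 43, 45 and 16 UMIs. TF, the iron carrier transferrin, had 633, 737 and 782 CPM and then 465, 694 and 570 CPM. SOX9, the transcription factor of Sertoli fate, had 373, 285 and 264 CPM and then 295, 297 and 147 CPM. FSHR was lower in each aged library than in each adult one, whereas the ranges of TF and SOX9 overlapped. ALDH1A1, an enzyme of retinoic acid synthesis, also overlapped, with 681, 629 and 836 CPM against 516, 608 and 1091 CPM.

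Some genes separated the adult from the aged marker-dense cells in all 6 libraries, and those given here were named after their values were seen. The list is not complete. AMHR2, DHH, APOE and PLA2G1B separated the ages too, all lower in the aged libraries. In aged non-breeding 1, non-breeding 2 and breeding 1, AMHR2 rested on 3, 1 and 0 UMIs and DHH on 3, 26 and 4. APOE rested there on 100, 109 and 26 UMIs and PLA2G1B on 64, 154 and 24. DHH left little room between the ranges, with 26 of 289526 UMIs in aged non-breeding 2 and 62 of 663924 in adult breeding 1. AMH had 2675, 1775 and 3609 CPM in the adults and 851, 1012 and 635 CPM in the aged animals, resting on 150, 293 and 39 UMIs in the latter. PDGFD, a platelet-derived growth factor ligand, was also lower in the aged libraries, at 136, 86.3 and 130 CPM (24, 25 and 8 UMIs) against 328, 216 and 237 CPM. PDE4D, a phosphodiesterase that breaks down cyclic AMP, was higher, at 403, 328 and 424 CPM against 54.4, 94.4 and 191 CPM, while the other cells held 34.0, 15.8 and 19.5 CPM against 31.4, 17.7 and 12.5 CPM. PTGDS, the prostaglandin D synthase secreted by Sertoli cells, stood at 6350, 10041 and 7330 CPM against 2681, 6163 and 6084 CPM, with little room between the ranges. With 16 to 118 aged cells per library and a limit set on the data, these differences carry no test.

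Immediate early genes, which rise within minutes of a stimulus and many of which encode transcription factors, were also measured in the marker-dense cells. The 12 genes of the list summed to 29.2, 42.9 and 15.1 per 10000 UMIs in the adult libraries and to 2.67, 9.26 and 7.33 in the aged ones. FOS had 640, 1130 and 334 CPM against 39.7, 138 and 97.7 CPM, the latter on 7, 40 and 6 UMIs. In the other cells the list held 7.62, 5.04 and 3.47 and then 3.53, 5.38 and 2.02 per 10000, so there the ages overlapped.

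Genes of other cell types were measured in the marker-positive cells of the 7 deeper libraries. The 11 spermatid genes took 4.23 per 10000 UMIs in adult non-breeding 1 and between 45.2 and 60.9 in the other 6 libraries, and PRM1 itself had a UMI in 82.3% to 100% of the marker-positive cells. Aged non-breeding 1 had the highest levels of 6 lists of other cell types, in 4 of them by a wide margin. There the erythroid genes took 60.5 per 10000 UMIs against at most 0.462 elsewhere, and T and NK genes 5.30 against at most 0.488. Stroma genes took 27.1 there against at most 11.8, and endothelial genes 3.0 against at most 0.523. Macrophage genes took 1.77 against at most 1.53 and peritubular genes 4.10 against at most 3.10, which was little above the next library. Of 4 erythroid genes all had UMIs in that library, against 3 in 5 others and 0 in aged breeding 1. All 7 T and NK genes had UMIs in 5 libraries, whereas CD3G and CD2 were at 0 in adult breeding 1 and aged breeding 2. The 8 stroma genes and the 11 spermatid genes had UMIs in all 7. In its 74 marker-dense cells the erythroid genes still took 43.9 per 10000 and the T and NK genes 2.5. The other cells of aged non-breeding 1 were likewise the highest among the 7 libraries. Erythroid genes took 34.3 per 10000 UMIs in them against at most 0.601, and T and NK genes 2.26 against at most 0.314. Endothelial genes took 1.13 against at most 0.503, and stroma genes 13.97 against at most 9.003. The high levels in this library were therefore not confined to its marker-positive cells. The Leydig gene INSL3 was at 0 in the marker-positive cells of adult non-breeding 2, adult breeding 1 and aged breeding 2. The part of these genes in the results below was not tested.

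**Figure D4:**
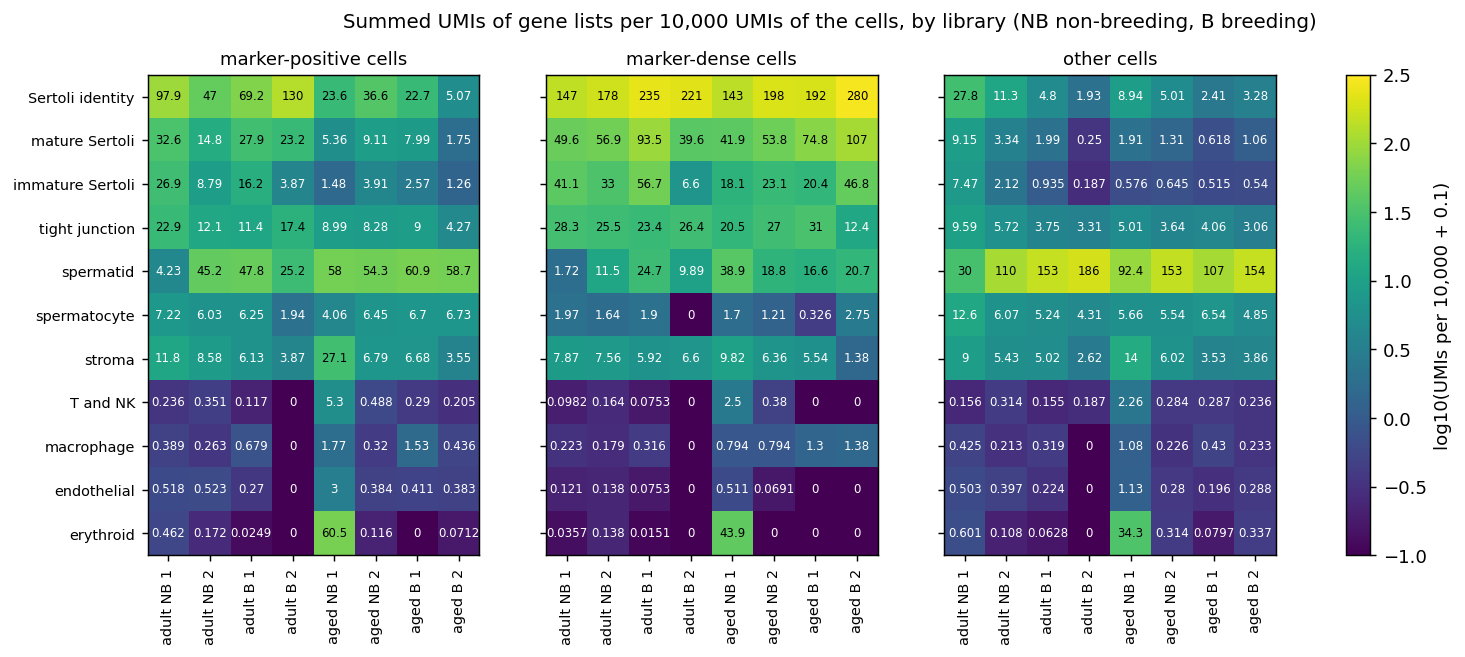
Summed UMIs of gene lists per 10000 UMIs (colour, log scale) by library in the sets of cells. The Sertoli list is highest in the marker-dense cells, and the erythroid, T and NK and stroma lists stand out in the marker-positive cells of aged non-breeding 1.

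The marker-positive cells were then set beside all other cells of the same 4 animals. This contrast is the one that chose the cells, so its counts describe the choice. By edgeR's quasi-likelihood test with the animal as a block, 6334 of 19651 genes passed an adjusted p (Benjamini-Hochberg) of 0.05 (32.2%), of which 3757 were higher (19.1%) and 2577 lower (13.1%). Without the block 0 passed in edgeR, with 5792 at an unadjusted p under 0.05. The count was 2384 without adult animal 2, 2582 without aged animal 1 and 2730 with the spermatid limit at 1% (1306 higher and 1424 lower). Of the 24 Sertoli genes 21 were higher and 1 lower, with a median log2 fold change of 2.0 against 0.06 over all genes. AMH had 1660, 424, 45.5 and 104 CPM in the marker-positive cells of adult animals 1 and 2 and aged animals 1 and 2, and 147, 75.9, 8.21 and 8.22 CPM in the other cells (log2 fold change 2.63 ± 0.29, SE). DHH, the hedgehog ligand of Sertoli cells, had 79.6, 28.6, 3.35 and 9.94 CPM against 6.93, 5.64, 0.453 and 0.464 CPM. The gene that was lower was SHBG, whose product binds androgen, at 1.60, 1.94, 1.92 and 1.93 CPM against 20.2, 3.58, 2.90 and 5.70 CPM.

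Of the junction lists, 12 of 23 tight junction genes were higher and 1 lower (median log2 fold change 0.97), with CGN, a plaque protein of tight junctions, at 2.82 ± 0.30 and TJP1 at 1.42 ± 0.26. Of 20 genes of adherens junctions and the ectoplasmic specialization, the actin-rich anchor of spermatids, 13 were higher and 1 lower (median 1.19). Of 17 phagocytosis and lysosome genes 13 were higher and 1, LAMP1, was lower (median 1.42), with GAS6, a bridging ligand for engulfment, at 2.12 ± 0.27 and its receptor MERTK at 1.33 ± 0.26. Immediate early genes and interferon-induced genes were each higher in 9 of 12. Of 20 genes of glucose and lactate supply 5 were higher and 5 lower, and of 30 lipid genes 8 and 8, beside 19.1% and 13.1% of all genes. LDHA, a lactate dehydrogenase subunit, was lower by a log2 fold change of -1.04 ± 0.26, and SLC2A1, a glucose transporter, higher by 1.53 ± 0.34. Of 11 spermatid genes none was higher and 6 were lower (median -1.82), led by TNP2 at -3.51 ± 0.73, and the limit on PRM1, PRM2 and TNP1 had removed spermatids from the marker-positive side.

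The genes with the steepest change on the higher side, other than lists, included TBX22, a T-box factor, with 173, 65.7, 18.1 and 19.9 CPM against 15.2, 11.2, 1.5 and 1.15 CPM. MME, the membrane metalloprotease neprilysin, had 111, 44.2, 14 and 18.5 CPM against 9.94, 7.48, 1.26 and 1.15 CPM. SLC52A3, a riboflavin transporter, had 70.1, 28.3, 7.54 and 19.3 CPM against 7.24, 4.68, 0.967 and 1.01 CPM. All 3 genes were higher in the marker-positive cells of every animal, and in each both adults lay above both aged animals, whose marker-positive cells held fewer marker-dense cells. Within the marker-dense cells the ages overlapped, with MME at 161 to 171 CPM in the 3 deeper adult libraries against 162 to 277 CPM in aged non-breeding 1, non-breeding 2 and breeding 1, TBX22 at 197 to 266 against 142 to 326 CPM and SLC52A3 at 113 to 172 against 96.5 to 180 CPM. When stromal cells took the place of all other cells, 305 genes were higher and 439 lower, and 488 of these 744 had been called against all other cells.

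The same rule took 10228 prepubertal cells, 5868 in non-breeding 1, 1840 in breeding 1, 1465 in non-breeding 2 and 1055 in breeding 2. In them the 24 Sertoli genes took 145, 143, 137 and 122 per 10000 UMIs in that order, above the 47.0 to 97.9 of the 3 deeper adult libraries. The prepubertal cells outside the rule held 117, 125, 130 and 116 per 10000, close to the cells inside it, so the rule hardly separated cells by these genes there. A list of 9 mature Sertoli genes took 26.2, 24.4, 23.1 and 19.2 per 10000 in the prepubertal cells of the rule. In adult non-breeding 1, non-breeding 2 and breeding 1 it took 32.6, 14.8 and 27.9, so the ages overlapped. In the marker-dense cells of these adult libraries it took 49.6, 56.9 and 93.5, and 53.0 in those of prepubertal non-breeding 1. CST9L had 688 CPM in prepubertal non-breeding 1 and 4.99, 27.3 and 9.27 CPM in breeding 1, non-breeding 2 and breeding 2. Marker-dense cells numbered 467 in prepubertal non-breeding 1 and 0 in the other prepubertal libraries (0 of 7210, 11338 and 9903 cells, which allows shares of up to 0.0416%, 0.0265% and 0.0303%). Prepubertal non-breeding 1 also held 31 spermatids, and the others none, so it stands apart from them.

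Adult marker-positive cells differed from the prepubertal cells of the same rule in 2883 of 18260 genes by edgeR's quasi-likelihood test at an adjusted p under 0.05 (15.8%), with 2249 higher in the adults (12.3%) and 634 lower (3.47%). The call hangs on the setting, since with at least 3 markers, or with the spermatid limit at 1%, none passed, while 4285 and 6463 genes had an unadjusted p under 0.05. Without prepubertal non-breeding 1, a setting added after the data were seen, 4526 passed, and without adult animal 1 7890. Germ cell genes were on the higher side, with 7 of 11 spermatid genes, 4 of 11 spermatocyte genes and 4 of 8 spermatogonia genes. The spermatid list took 4.23 to 47.8 per 10000 UMIs in the adult and 0.374 to 0.982 in the prepubertal cells, and its part in the counts was not tested.

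Of the 24 Sertoli genes 3 were lower in the adults and none higher, with a median log2 fold change of -0.99 against 0.07 over all genes. INHBB, the beta B subunit of activin and inhibin, had 40.4 and 12.2 CPM in the adults and 148 and 218 CPM in the prepubertal animals (-2.94 ± 0.63, adjusted p = 0.0452, edgeR). GATA4, a transcription factor of gonadal somatic cells, had 111 and 38.0 CPM against 298 and 427 CPM (-2.42 ± 0.58, adjusted p = 0.0469). AMHR2, the receptor of AMH, had 66.8 and 24.6 CPM against 179 and 181 CPM (-2.11 ± 0.52, adjusted p = 0.0489). For AMH the values were 1660 and 424 CPM against 5153 and 5569 CPM, which did not overlap but missed the threshold (-2.51 ± 0.71, adjusted p = 0.0609). CLU and PTGDS were close between the ages in these sums, with log2 fold changes of -0.20 ± 0.50 and -0.28 ± 0.54. The adult sums are of mixed make-up, with marker-dense cells at 21.6% to 38.9% of the marker-positive cells in the 3 deeper libraries. CLU, PTGDS and AMH stood higher in those marker-dense cells than in the adult sums. The part of this make-up in the fold changes was not tested.

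Of 8 immature Sertoli genes 3 were lower and 1 higher. The keratin KRT18 had 14.8 and 5.27 CPM in the adults against 168 and 137 CPM (-4.05 ± 0.58, adjusted p = 0.0452), and PDPN, podoplanin, had 13.9 and 4.03 CPM against 54.1 and 57.4 CPM (-2.77 ± 0.61). The adhesion molecule NCAM1 went the other way, at 18.5 and 25.1 CPM against 3.92 and 1.29 CPM. Of 20 adherens junction genes 4 were lower and none higher, among them the cadherins CDH3, at 4.50 and 3.71 CPM against 67.0 and 65.7 CPM (-4.11 ± 0.40), and CDH1, at 1.12 and 1.02 CPM against 23.2 and 14.2 CPM (-4.22 ± 0.54).

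Immediate early genes were lower in the adults in 8 of 12 (median -2.12), beside 3.47% of all genes. FOS had 424 and 348 CPM against 1891 and 2445 CPM (-2.59 ± 0.45, adjusted p = 0.0452). Interferon-induced genes were lower in 7 of 12 (median -2.07), with IFI27 at 560 and 440 CPM against 1809 and 2213 CPM. Cells outside the rule differed in the same direction. In them immediate early genes took 3.47 to 7.62 per 10000 UMIs in the deeper adult libraries and 34.4 to 101 in the prepubertal ones. Interferon-induced genes took 0.596 to 2.95 and 20.1 to 32.3. The lower adult levels of both lists were therefore not confined to marker-positive cells. The genes with the steepest change on the lower side included the protocadherin PCDH11X, at 16 and 8.77 CPM against 455 and 858 CPM (-5.84 ± 0.61, adjusted p = 0.0452), and PCP4, a calmodulin-binding peptide, at 1.95 and 1.56 CPM against 148 and 53.6 CPM (-5.94 ± 0.68). GNRHR, the receptor of gonadotropin-releasing hormone, had 0.830 and 0.0538 CPM in the adults against 18.0 and 32.0 CPM. Both adults lay below both prepubertal animals in each of these genes.

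**Figure D5:**
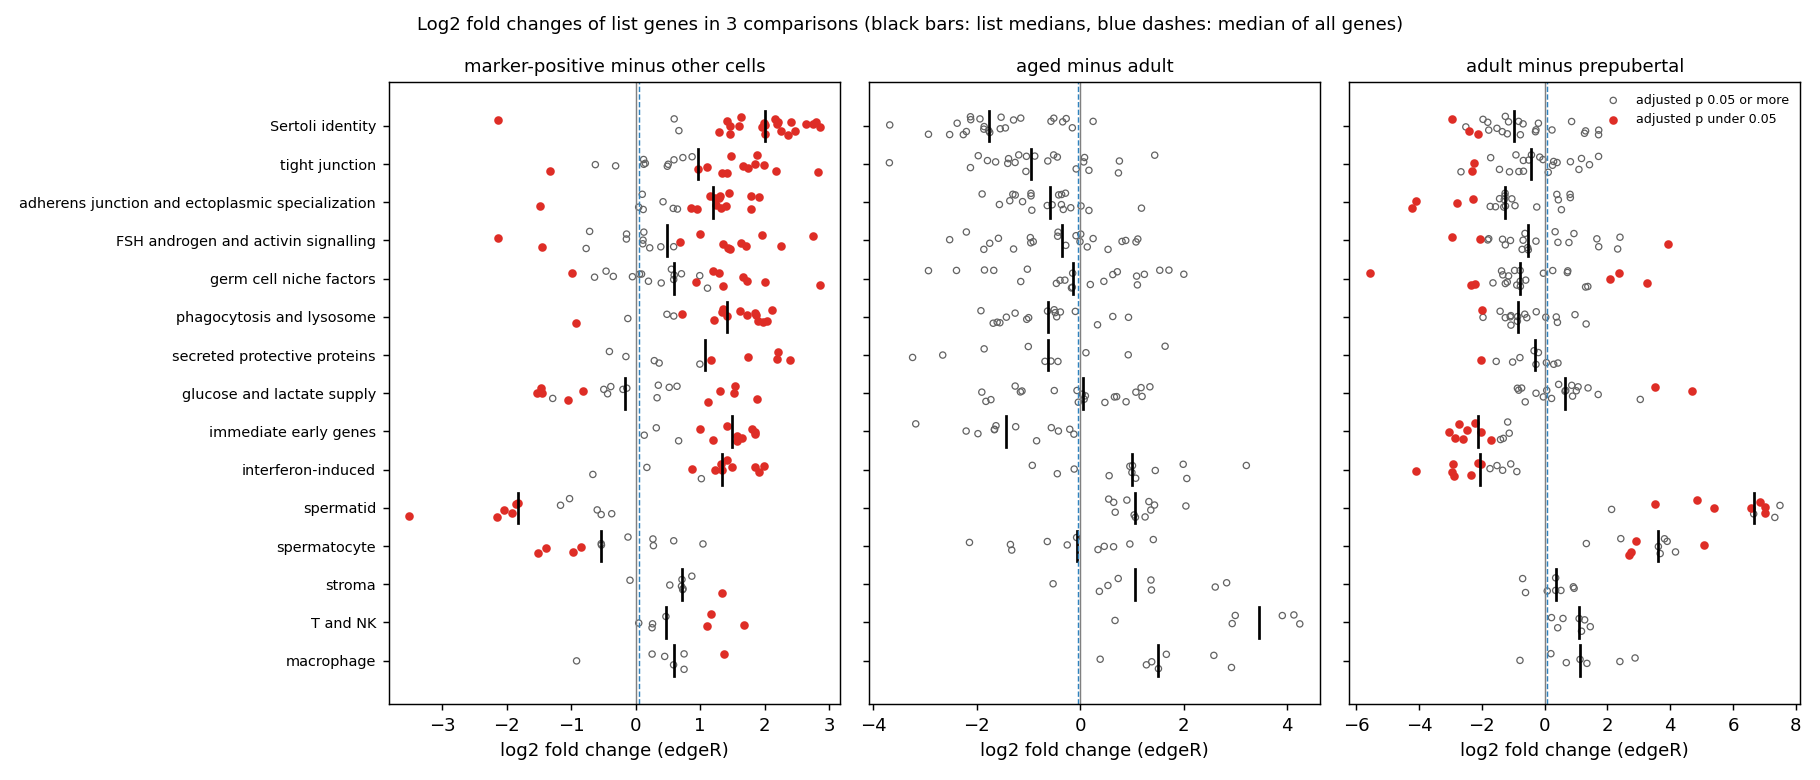
Log2 fold changes (x axis) of the genes of 15 lists in 3 comparisons of marker-positive cells, filled where the adjusted p (edgeR) is under 0.05, with list medians as black bars and the median of all genes dashed. Sertoli genes sit at a median of 2.0 against other cells, at -1.76 between aged and adult cells with none called, and at -0.99 between adult and prepubertal cells.

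Aged and adult marker-positive cells, summed per animal, differed in 0 of 17671 genes by edgeR at an adjusted p under 0.05 (0% of genes tested), with 1471 genes at an unadjusted p under 0.05. DESeq2 called 45 genes higher and 23 lower in the aged animals, and without the filter on low counts edgeR called 136 and 95. Without aged animal 2 edgeR called 211 and 31, and without aged animal 1 6 and 5. Of the 24 Sertoli genes 23 had lower values in the aged animals, with a median log2 fold change of -1.76 against -0.05 over all genes, and none passed. The compared cells differed in make-up. Marker-dense cells were 21.6% to 38.9% of the marker-positive cells in the 3 deeper adult libraries and 0.542% to 13.9% in the aged ones. Within the marker-dense cells the summed level of the list overlapped between the ages (147 to 235 against 143 to 198 per 10000). PTGDS, higher in the aged marker-dense cells, weighs heavily in that sum, and AMH was lower there, so the overlap does not hold gene by gene. The part of the make-up of the cells in the fold changes was not tested. AMH had 1660 and 424 CPM in the adults against 45.5 and 104 CPM in the aged animals (-3.68 ± 0.89, adjusted p = 0.585, edgeR), and PTGDS had 1753 and 1585 CPM against 665 and 1381 CPM (-0.56 ± 0.72). All 11 spermatid genes had a fold change above 0 (median 1.07), and in those named the lowest value lay in adult animal 1. TMEM190 overlapped, with 78.1 and 525 CPM in the adults against 326 and 675 CPM in the aged animals. In TNP2, ODF2 and, narrowly, CAPZA3 both adults lay below both aged animals, with TNP2 at 157 and 705 CPM against 2224 and 1011 CPM. All 6 T and NK genes tested had a fold change above 0 too (median 3.46), and there aged animal 1 alone was high in those named. CD3D had 1.31 and 2.10 CPM against 53.5 and 1.93 CPM, and GZMB 6.83 and 5.86 CPM against 218 and 9.66 CPM. By contrast, all 12 immediate early genes had lower values (median -1.44). None of these passed the test.

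The smallest adjusted p was 0.463, of a gene without a symbol (ENSMMUG00000049502, 0.224 and 0.0538 CPM in the adults against 14.9 and 46.1 CPM in the aged animals). The 10 genes of smallest p among those with a symbol were DNMT3L, TCN1, HACD1, NRCAM, PLA2G1B, MAGEB1, GADD45G, CLEC18A, DOCK8 and TMEM236, each at an adjusted p of 0.585. PLA2G1B, a secreted phospholipase, had 761 and 237 CPM in the adults against 36.0 and 52.2 CPM in the aged animals (-3.38 ± 0.76), and GADD45G, a growth-arrest gene, had 90.4 and 122 CPM against 13.3 and 20.7 CPM (-2.5 ± 0.55). The guanine nucleotide exchange factor gene DOCK8, known for its role in lymphocytes, had 4.12 and 2.96 CPM against 44.1 and 19.9 CPM (3.28 ± 0.69). The animals of the 2 ages did not overlap in these 3 genes, yet no gene passed the correction.

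Season, which cannot be told apart from the order in which the testes were removed, was compared within each age. In the adults, with only adult breeding 1 on the breeding side, assumed to vary like the other groups, 0 of 15820 genes passed in edgeR (0% of genes tested), with 234 at an unadjusted p under 0.05 and 0 in DESeq2. ABHD1, an alpha/beta hydrolase gene, had the smallest p, with 31.3 CPM in adult breeding 1 against 2.77 and 4.04 CPM in the adult non-breeding libraries (3.32 ± 0.67, adjusted p = 0.934). SLC39A12, a zinc transporter gene, had 19.2 CPM against 1.30 and 0.915 CPM, and CSF1R, the macrophage receptor of CSF1, 23.8 CPM against 3.16 and 5.81 CPM. With the animal as a block 2550 genes were higher and 1081 lower in edgeR, a contrast that rests on adult animal 1 alone. Without adult non-breeding 2 the contrast sets 1 library against 1 of that same animal, so its calls are not given. The 2 adult non-breeding libraries differed from each other, with spermatid genes at 4.23 and 45.2 per 10000 UMIs, and adult breeding 1 lay at 47.8.

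In the aged animals 0 of 15820 genes passed in edgeR (0%), with 350 at an unadjusted p under 0.05, and DESeq2 called 2 genes lower in the breeding season. The block on the animal gave 34 genes, all lower. ITLN1, intelectin, had the smallest p, at 1.21 and 0.890 CPM in the breeding libraries against 22.1 and 14.4 CPM in the non-breeding ones (-4.05 ± 0.83, adjusted p = 1, edgeR). Among the next genes with a symbol, GZMB, the cytotoxic granzyme B of T and NK cells, stood at 3.62 and 1.78 CPM against 241 and 13.2 CPM, and the globin gene HBE1 at 0 and 2.67 CPM against 4676 and 7.60 CPM. In GZMB and HBE1 the difference lay mostly in aged non-breeding 1, the library with the high T, NK and erythroid lists.

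The season change differed between adults and aged animals in 0 of 15820 genes (0%) by edgeR's interaction term, with 97 at an unadjusted p under 0.05 and 0 in DESeq2. The adult breeding side of this term is 1 library, adult breeding 1, which is assumed to vary like the other groups. With the animal as a block 1362 genes were higher and 48 lower, and the adult part of those calls rests on adult animal 1 alone. ITLN1 had the smallest p (4.42 ± 1.09, adjusted p = 1), with 12.8 CPM in adult breeding 1 against 11.5 and 9.79 CPM in the adult non-breeding libraries. For AMH the adult season change was -0.01 ± 1.04 and the aged one -1.06 ± 0.88 on the log2 scale, each smaller than or close to its error.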

How the data were processed

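Testes of 6 rhesus monkeys were profiled with droplet single-cell RNA sequencing, and the authors deposited 1 matrix of UMI counts per library (12 libraries), made with Cell Ranger 9.0.0 on Mmul_10 per the labels. The sample sheet of the study tied each matrix to an age group and season, and shared sample numbers were taken as the animal. Cells were kept from 300 genes upward, to a limit of 30000 UMIs and of 3% of UMIs in 13 mitochondrial genes. The marker-positive cells and the gene lists were chosen with earlier results of these data known. Doublets were scored with Scrublet, whose own threshold marked none in 6 libraries, so the highest scores were marked at 0.8% per 1000 cells; such cells stayed in, except in an alternative. Counts were summed per library (season) or animal (other comparisons), in sums of at least 20 cells, and tested with edgeR 4.0.16 (quasi-likelihood, TMM, R 4.3.3) over all genes with Benjamini-Hochberg adjustment, the animal being a block against other cells. The code was tested on simulated data. Alternatives were DESeq2 1.42.0, other scaling, no filter on low counts, other cell limits, each library or animal left out, and the block, since both testes of an animal form pairs (deviations of the aged pairs correlated at r = 0.311). Named genes were those called in the lists and the 4 highest of each list, the 10 largest and 10 smallest fold changes among called genes and, where none was called, the 10 of smallest p, all among genes with a symbol. Genes of the marker-dense cells were chosen after their values were seen.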

Additional observations from a re-analysis of the deposited data

How the results depend on the processing

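The share difference between aged and adult animals kept its sign under all settings, from -43.7 to -28.9 percentage points when 1 animal was left out, but was -13.5 points for marker-dense cells (without a test), -25.7 with both testes of an animal weighted equally and -48.9 in non-breeding libraries alone (all 3 added after the data were seen). Adult season calls rose from 0 to 3631 with the block on the animal and ranged from 0 to 1031 when 1 non-breeding library was left out. Aged season calls were 2 in DESeq2 and 34 with the block, and 0 when any 1 library was left out, and the interaction gave 1410 with the block. Calls between aged and adult animals were 68 in DESeq2 and 231 without the filter on low counts, and ranged from 0 to 242 when 1 animal was left out. Calls against other cells numbered 6334, fell to 2730 with the spermatid limit at 1%, to 744 against stromal cells and to 0 with no replicate block, and ranged from 2384 to 7789 when 1 animal was left out (2384 without adult animal 2, 2582 without aged animal 1). Calls against prepubertal cells numbered 2883, and were 5456 in DESeq2, 4327 without the filter, 0 with at least 3 markers, 0 with the spermatid limit at 1%, 4701 against prepubertal cells defined by AMH, SOX9, INHA and WT1, 4526 without prepubertal non-breeding 1 (added after the data were seen), and 2476 to 7890 when 1 animal was left out (7890 without adult animal 1). The cause was not tested. No result reversed. Calls were followed over genes and settings for the genes named by largest or smallest fold change or by smallest p. Genes named only from the lists were not counted. Against other cells 209 of these values kept their call and 22 lost it. Against prepubertal cells 218 kept it and 41 lost it. Between aged and adult 25 came to pass, between adult seasons 11, between aged seasons 4 and in the interaction 6. DESeq2's size factor scaling moved the median log2 fold change of all genes from -0.26 to -0.14 (adult season) and from -0.05 to 0.07 (aged minus adult). Leaving out adult breeding 1 was not run, since no adult breeding library with 20 cells would remain. The blocked fits changed the calls as given and 2 animals per age limit all comparisons.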
